A study of Caenorhabditis elegans with 6 samples.

Results

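The genes described here are those for the breakdown and handling of fatty acids in the nematode *Caenorhabditis elegans*, taken by their WormBase symbols. A gene was included when its symbol began with *acs-*, *acdh-*, *acox-*, *cpt-*, *ech-*, *lipl-* or *lbp-* and when it had at least 10 counts over all 6 libraries together. The prefixes gave 75 of the 46726 genes counted, and 73 of them reached the minimum. The other two, *acs-15* and *lipl-8*, had 5 counts and 1 count in total. The 73 genes are all protein coding and comprise 21 *acs*, 13 *acdh*, 10 *ech*, 9 *lbp*, 7 *acox*, 7 *lipl* and 6 *cpt* genes. Symbols group genes by the enzyme class that they encode or resemble, and only part of these genes has been studied in the worm.

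Fatty acids released by lipases are joined to coenzyme A by acyl-CoA synthetases (*acs* genes). Long-chain acyl groups are then passed to carnitine and back by carnitine palmitoyltransferases (*cpt* genes), which brings them into mitochondria. There, beta-oxidation shortens them in repeated rounds that begin with an acyl-CoA dehydrogenase (*acdh* genes) and continue with an enoyl-CoA hydratase (*ech* genes). In peroxisomes the round begins with an acyl-CoA oxidase (*acox* genes) instead, and in *C. elegans* this route also trims the side chains of the ascaroside pheromones. The *lipl* genes encode lipases related to the lysosomal acid lipase, and the *lbp* genes encode small proteins that bind and carry fatty acids. Much of the worm's stored fat is held in the intestine.

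RNA was measured in whole animals of 2 strains, wild-type N2 and *mbl-1(tm1563)*, with 3 biological replicates of each. *mbl-1* encodes the worm's muscleblind, an RNA-binding protein that regulates splicing, and *tm1563* is a deletion allele present in all tissues. Both strains were grown at 20 °C on HT115 bacteria carrying an empty RNAi vector, were moved at the L4 stage to plates with 10 µM 5-fluorouracil, which keeps progeny from hatching, and were collected as day 2 adults, on day 5 from hatch. The animals of both strains therefore carried the drug and the vector-bearing food, and no fasted animals were compared. The question for these genes was how much the mRNA of each differed between the strains.

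Each library held between 17574738 and 20750318 counts on genes, spread over 17078 to 17564 genes with counts. Reads that aligned to several places were 9.74% to 9.87% of all reads in N2 and 7.34% to 8.08% in the mutants, and they were left out of the gene counts. *mbl-1* itself was lower in the mutants, with a log2 fold change of -1.14 (adjusted p = 0.0342), and the strains did not overlap. With each library left out in turn this log2 fold change lay between -1.39 and -0.89 and *mbl-1* was called in 1 of 6 fits, that without mutant replicate 2. The counts do not separate reads of the deleted sequence, which mutants cannot give. Among the mutants, replicate 1 was the highest library for 39 of the 64 tested genes described here, and replicate 2 was the lowest for 36.

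Levels are given as CPM (counts per 1000000 counts of the TMM-scaled library), with the 3 libraries of a strain in the order of their replicate numbers. A log2 fold change is the mutants over N2, so that negative values are lower in the mutants. Its standard error (SE) was derived as the size of the unshrunken log2 fold change over the square root of the F statistic. That statistic and the adjusted p come from edgeR's quasi-likelihood test over all 12335 genes that passed the low-count filter. This test, with TMM scaling, all 6 libraries and strain as the only factor, is the main test. A call needed both an adjusted p under 0.05 and a difference of 2-fold or more. Of the 73 genes, 64 passed the filter, and 3 of these (*acs-6*, *cpt-4* and *ech-9*) had fewer than 10 counts in at least 1 library. The 9 that did not pass were *acs-9*, *acs-10*, *acs-18*, *acs-24*, *acdh-5*, *acdh-6*, *acdh-8*, *lipl-4* and *lipl-6*, with 11 to 35 counts in total over the 6 libraries.

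Most of the genes differed little between the strains. Of the 64 tested, 53 lay within 1.5-fold of equal expression, and the median log2 fold change was -0.09, beside -0.04 over all tested genes. *cpt-3* and *cpt-4* were called higher in the mutants, which is 3.12% of the tested genes of these families, where 0.697% of all tested genes were called higher. *acox-1.2* and *cpt-5* were called lower, again 3.12%, where 1.14% of all tested genes were. With RLE scaling or library size alone in place of TMM, the calls were 2 higher and 1 lower, because *cpt-5* no longer passed. *cpt-4* had 10 or more counts in 2 N2 libraries and 3 mutant libraries, so it passed the filter through the mutants. With 10 counts asked of every library, *cpt-4* was not among the 61 genes tested, and *cpt-3* alone was called higher.

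Without a limit on the fold change, the same 2 genes were higher at an adjusted p under 0.05, where 1.79% of all tested genes were, and 7 genes (10.9%) were lower, where 3.67% of all tested genes were. The 7 were *acox-1.1*, *acox-1.2*, *acox-1.4*, *acs-17*, *acs-22*, *acdh-1* and *cpt-5*. This count of lower genes was 2 without N2 replicate 1, N2 replicate 3 or mutant replicate 3, 13 without mutant replicate 1, 4 with RLE scaling or library size alone, 13 with DESeq2 and 14 with the exact test. The count of higher genes was 1 without N2 replicate 1 or mutant replicate 3, 3 without mutant replicate 1, 6 without mutant replicate 2, 5 with the length correction, and 4 with DESeq2 or the exact test. Each mutant library was below each N2 library in 19 of the 64 genes (29.7%), beside 17.9% of all tested genes, and above each of them in 6 (9.38%), beside 14.7%. The log2 fold change was negative in 44 genes and positive in 20, beside 6814 and 5521 of all tested genes. The split of the 64 genes depended on the scaling, the length correction and the libraries used. It was 33 to 31 with library size alone, 30 to 34 after a correction for gene length, and 32 to 32 without mutant replicate 2.

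**Figure D1:**
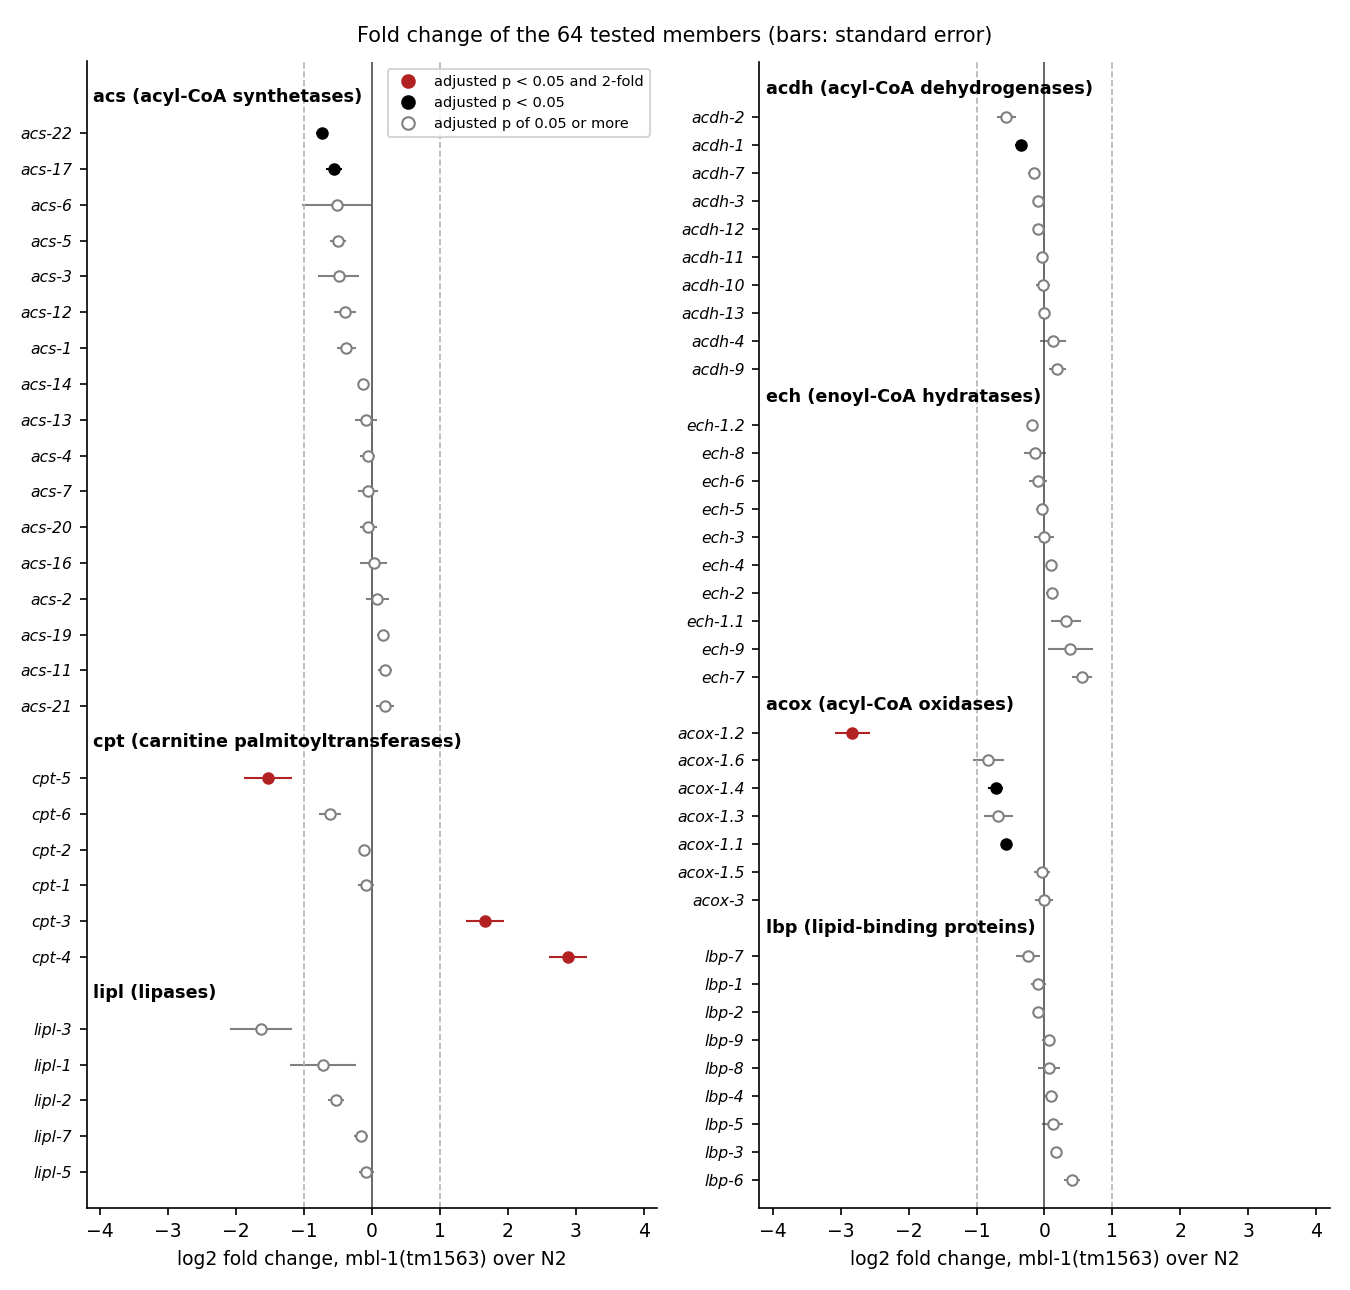
Log2 fold change of the mutants over N2 for each of the 64 tested genes, grouped by family, with bars of 1 standard error. Filled red points are the 4 called genes, filled black points the 5 genes with an adjusted p under 0.05 and a smaller change, and the dashed lines mark a 2-fold change.

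The larger changes lay among genes of lower level. At or above 50 CPM per kb of exon, averaged over all libraries, there were 23 tested genes, and their log2 fold changes lay between -0.38 and 0.55. Of these, *acdh-1* alone had an adjusted p under 0.05, and none was called. Below that level there were 41 genes, which included all 4 called genes and 8 of the 9 with an adjusted p under 0.05. The limit of 50 was chosen after the values were seen. The same split was not made over all tested genes, so it is not known whether it is particular to these families. The highest level in each family, averaged over all libraries, was that of *lbp-9* (1569 CPM per kb), *acdh-1* (660), *ech-6* (405), *lipl-5* (270), *acs-13* (269), *cpt-1* (87.6) and *acox-1.5* (18.8). Of these 7 genes, *acdh-1* is again the only one with an adjusted p under 0.05.

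**Figure D2:**
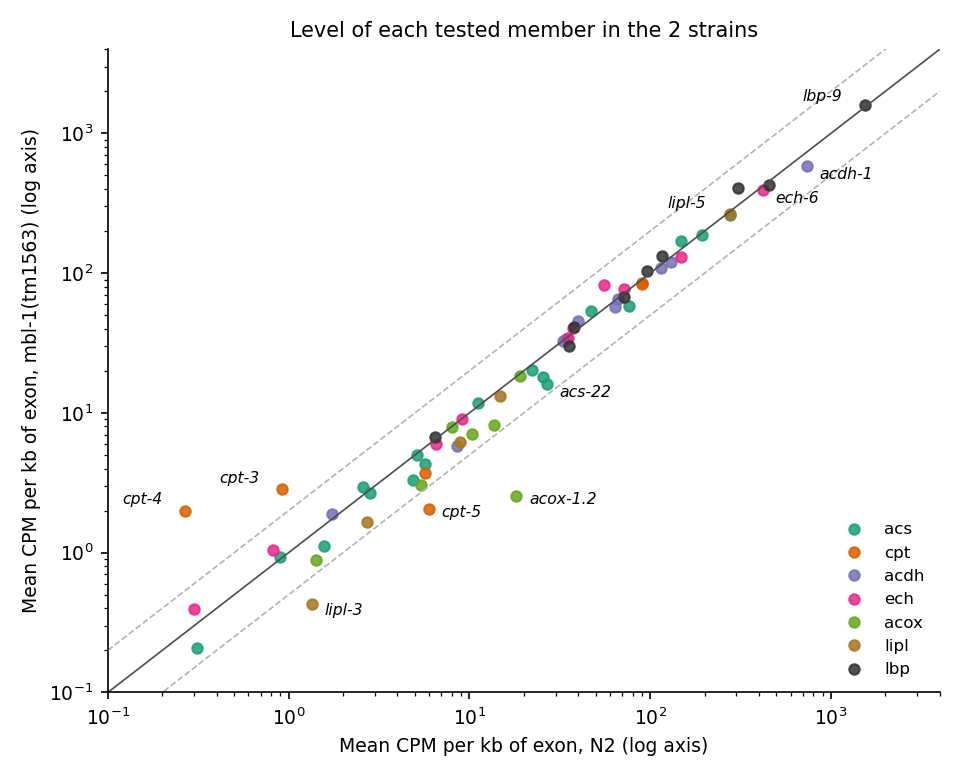
Mean level of each tested gene in N2 (horizontal axis) and in *mbl-1(tm1563)* mutants (vertical axis), in CPM per kb of exon on log axes, coloured by family. The solid line marks equal levels and the dashed lines a 2-fold difference, and the genes beyond 2-fold (*cpt-4*, *cpt-3*, *cpt-5*, *acox-1.2* and *lipl-3*) all lie below 20 CPM per kb in both strains.

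Summed over all 73 genes, the level was 7852 ± 54.5 CPM in N2 and 7358 ± 64.9 CPM in the mutants (SD, n = 3 per strain), which is 0.785% and 0.736% of the scaled library. The largest part of the difference lay in the *acdh* genes, whose sum was 2076, 2030 and 2054 CPM in the N2 libraries and 1851, 1645 and 1751 CPM in the mutant libraries. Most of that sum is *acdh-1*. The *acox* sum was 178, 147 and 162 CPM in N2 and 115, 93.8 and 102 CPM in the mutants. The *acs*, *cpt*, *ech*, *lbp* and *lipl* sums overlapped between the strains. All these sums depend on the TMM scaling. On that scale all tested genes together summed to 1015234, 1031505 and 1038759 CPM in the N2 libraries. In the mutant libraries they summed to 916338, 1028720 and 975202 CPM. Whether the strains also differ when the sums are taken as a share of each library's own counts was not tested. In whole animals, fewer cells of a type and less RNA per cell cannot be told apart, and this holds for every value given here.

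The acyl-CoA oxidases of peroxisomes held the largest fall. Of the 7 *acox* genes, 3 were lower in the mutants at an adjusted p under 0.05 and none was higher, beside 3.67% lower over all tested genes, and in 5 of 7 each mutant library was below each N2 library, beside 17.9%. Without N2 replicate 1, N2 replicate 3 or mutant replicate 3, 1 *acox* gene was lower at an adjusted p under 0.05, *acox-1.2*. The median log2 fold change of the family was -0.68. *acox-1.2* (WBGene00008565), on chromosome I from 12942280 to 12946588, measured 48.3, 24.9 and 39.8 CPM in the N2 libraries and 6.11, 4.89 and 4.86 CPM in the mutant libraries. The lowest N2 library was 4.07 times the highest mutant library. The fall was 7.10-fold, from a mean of 37.6 ± 11.9 CPM to one of 5.28 ± 0.714 CPM (SD, 3 libraries each), and the log2 fold change was -2.83 (SE 0.26, adjusted p = 0.00216). It was called in each of the 18 other fits, with log2 fold changes between -3.06 and -2.61.

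*acox-1.1*, an oxidase known for shortening ascaroside side chains, measured 26.6, 26.3 and 25.9 CPM in N2 and 18.7, 17 and 17.7 CPM in the mutants. The libraries of each strain were close together and apart from those of the other, and the log2 fold change was -0.56 (SE 0.08, adjusted p = 0.0107). *acox-1.4* measured 30, 24.3 and 29.9 CPM in N2 and 17.2, 17.6 and 16.4 CPM in the mutants, and the log2 fold change was -0.72 (SE 0.11, adjusted p = 0.0116). Both missed the 2-fold limit, and both lost their adjusted p under 0.05 without N2 replicate 1, N2 replicate 3 or mutant replicate 3, with log2 fold changes between -0.60 and -0.48 for *acox-1.1* and between -0.81 and -0.67 for *acox-1.4* over the 6 fits that leave a library out.

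*acox-1.3* measured 3.06, 2.69 and 3.25 CPM in N2 and 1.86, 1.42 and 2.29 CPM in the mutants (log2 fold change -0.68, adjusted p = 0.0976). *acox-1.6* measured 14.4, 8.01 and 11.2 CPM in N2 and 7.66, 5.40 and 5.84 CPM in the mutants (log2 fold change -0.83, adjusted p = 0.0859). In both genes the strains did not overlap, but the difference did not pass the test. The exact test had both lower at an adjusted p under 0.05. DESeq2, the replicate block, the length correction with the block and the fit without mutant replicate 1 had *acox-1.6* lower. *acox-1.5* and *acox-3* had log2 fold changes of -0.04 (SE 0.12) and -0.01 (SE 0.13) with overlapping strains, and their signs turned with library size alone or a length correction. *acox-1.5*, the most abundant of the family per kb, measured 38.5, 44.1 and 36.7 CPM in N2 and 44.5, 34.1 and 37.3 CPM in the mutants. In N2, *acox-1.2* and *acox-1.5* stood side by side at 18.2 and 19.1 CPM per kb, whereas in the mutants they stood at 2.55 and 18.5 CPM per kb.

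**Figure D3:**
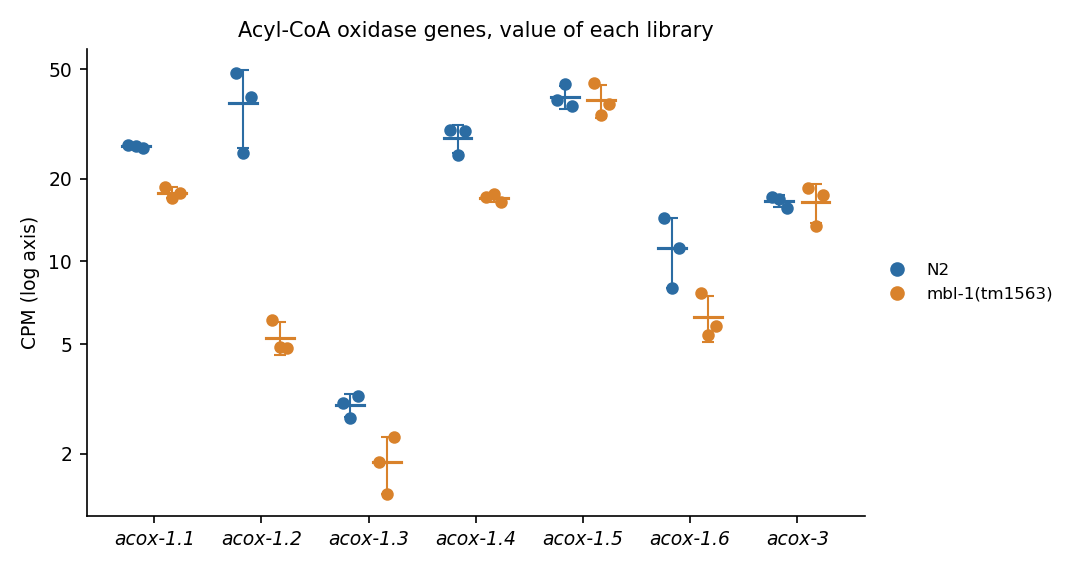
CPM of the 7 *acox* genes in each library on a log axis, with 3 points per strain, the mean as a line and the SD as a bar. *acox-1.2* fell from 24.9 to 48.3 CPM in N2 to 4.86 to 6.11 CPM in the mutants, while the strains overlap in *acox-1.5* and *acox-3*.

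The genes *acox-1.1*, *acox-1.2*, *acox-1.3* and *acox-1.4* are neighbours on the plus strand of chromosome I (WBcel235). The stretch runs from 12938555 to 12954003, and the genes are separated by 53, 344 and 35 bases. All 4 were lower in every mutant library than in every N2 library, though their log2 fold changes ran from -0.56 to -2.83 and that of *acox-1.3* did not pass the test. *acox-1.5*, *acox-3* and *acox-1.6* lie elsewhere, on chromosomes III, IV and X. The *acox-1* genes are paralogs, so reads that fit more than one of them were left out of the counts, and what share each gene lost was not measured. The exons of *acox-1.4* share 35 bases with those of *F08A8.8* on the other strand, and reads were counted without regard to strand.

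The carnitine palmitoyltransferase genes held 3 of the 4 calls, 2 higher and 1 lower, all among the less abundant of the 6 genes. That is 33.3% of the 6 called higher and 16.7% called lower, beside 0.697% and 1.14% of all tested genes. These shares rest on few genes. One of the higher genes, *cpt-4*, passed the filter through the mutants, and the lower gene, *cpt-5*, kept its call in 8 of 18 alternatives. With 10 counts asked of every library, 1 of 5 tested *cpt* genes was called higher and none lower. *cpt-1*, the enzyme of the outer mitochondrial membrane that commits long-chain fatty acids to beta-oxidation, measured 242, 261 and 256 CPM in N2 and 193, 273 and 248 CPM in the mutants (log2 fold change -0.09, SE 0.12, adjusted p = 0.67). *cpt-2*, the enzyme of the inner membrane, measured 189, 195 and 193 CPM in N2 and 181, 176 and 180 CPM in the mutants (log2 fold change -0.11, SE 0.06, adjusted p = 0.304). Both stood at 90.3 CPM per kb in N2. After a correction for gene length both signs turned, to 0.07 for *cpt-1* and 0.01 for *cpt-2*.

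The other *cpt* genes were expressed at lower levels, between 0.267 and 5.96 CPM per kb in N2. *cpt-4* (WBGene00019644), on chromosome V from 5023706 to 5027723, had the largest rise of the 64 genes. Its counts were 6, 18 and 11 in N2 and 103, 75 and 80 in the mutants, or 0.317, 0.896 and 0.651 CPM against 5.33, 4.26 and 4.37 CPM. The lowest mutant library was 4.76 times the highest N2 library. The rise was 7.39-fold, from a mean of 0.621 ± 0.291 CPM to one of 4.65 ± 0.59 CPM (SD, 3 libraries each), and the log2 fold change was 2.89 (SE 0.28, adjusted p = 0.00251). It was called in each of the 17 other fits that could test it, with log2 fold changes between 2.56 and 3.27. With at least 10 counts asked of every library it was not tested, since N2 replicate 1 held 6.

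*cpt-3* (WBGene00021703), on chromosome III from 2082819 to 2088314, measured 2.16, 1.09 and 2.96 CPM in N2 and 6.88, 6.08 and 6.33 CPM in the mutants. The mutant libraries were close together, whereas the N2 libraries differed 2.70-fold among themselves. The rise was 3.16-fold, and the log2 fold change was 1.66 (SE 0.28, adjusted p = 0.0165). Without N2 replicate 1 the log2 fold change was 1.70 and without mutant replicate 3 it was 1.67, and in both fits the gene was no longer called.

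*cpt-5* (WBGene00008629), on chromosome V from 13873195 to 13875888, measured 21.2, 8.01 and 11.5 CPM in N2 and 4.92, 4.37 and 4.80 CPM in the mutants. N2 replicate 1 stood well above the other N2 libraries, and all N2 libraries lay above the mutants. The fall was 2.88-fold, and the log2 fold change was -1.53 (SE 0.35, adjusted p = 0.0479). This is the least stable of the 4 calls. The log2 fold change was -1.05 without N2 replicate 1, -1.63 without N2 replicate 3, -1.56 without mutant replicate 1 and -1.54 without mutant replicate 3, and the gene was called in none of these fits. *cpt-6* measured 11.1, 16.6 and 12.7 CPM in N2 and 8.90, 9.26 and 8.19 CPM in the mutants, without overlap and without passing the test (log2 fold change -0.62, SE 0.16, adjusted p = 0.0698). Its adjusted p was under 0.05 with DESeq2, with the exact test and without mutant replicate 1.

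Per kb of exon, the mean levels of the low-level *cpt* genes lay closer together in the mutants than in N2. In N2 they ran from *cpt-4* (0.267 CPM per kb) through *cpt-3* (0.92 CPM per kb) to *cpt-6* (5.69 CPM per kb) and *cpt-5* (5.96 CPM per kb), and in the mutants from *cpt-4* (2.00 CPM per kb) and *cpt-5* (2.06 CPM per kb) through *cpt-3* (2.86 CPM per kb) to *cpt-6* (3.71 CPM per kb). Since *cpt-1* and *cpt-2* made up most of the family's counts, the sum of the 6 genes was 475 ± 8.68 CPM in N2 and 441 ± 37.7 CPM in the mutants (SD, n = 3 per strain).

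**Figure D4:**
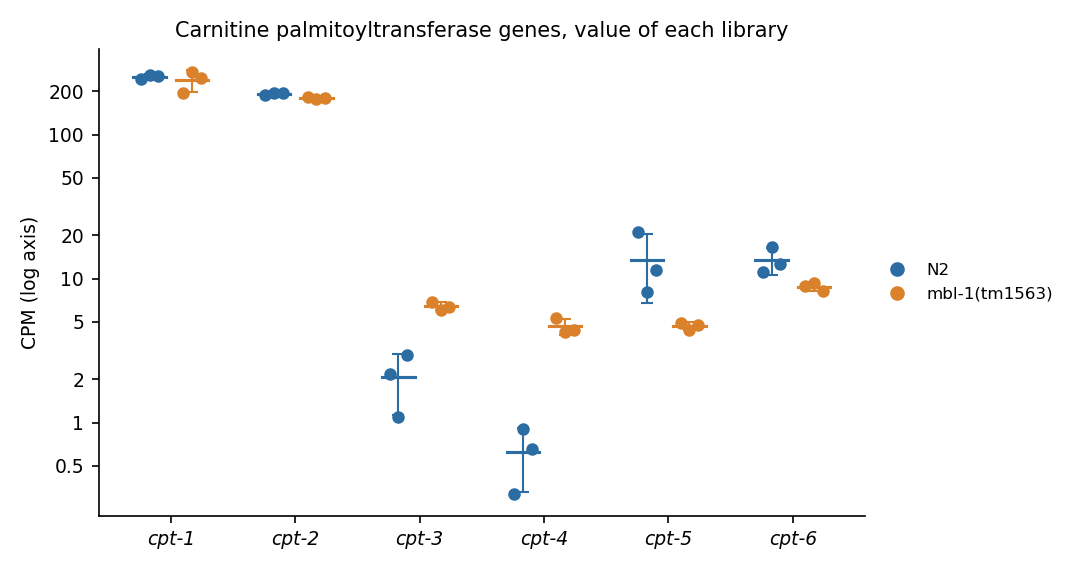
CPM of the 6 *cpt* genes in each library on a log axis, with 3 points per strain, the mean as a line and the SD as a bar. *cpt-3* and *cpt-4* are higher in the mutants and *cpt-5* is lower, and *cpt-1* and *cpt-2* lie between 176 and 273 CPM in both strains.

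Among the acyl-CoA synthetases, 2 of 17 tested genes (11.8%) were lower at an adjusted p under 0.05 and none was higher. Over all tested genes, 3.67% were lower and 1.79% higher. *acs-22*, a relative of the mammalian fatty acid transport proteins that is needed with *acs-20* for the barrier of the cuticle, measured 70.0, 61.8 and 67.2 CPM in N2 and 40.4, 38.5 and 39.8 CPM in the mutants. The strains were well apart, with a 1.68-fold fall (log2 fold change -0.74, SE 0.08, adjusted p = 0.00279), and the adjusted p stayed under 0.05 with each library left out. *acs-20* itself measured 13, 13.7 and 11.5 CPM in N2 and 12.5, 13.8 and 10.9 CPM in the mutants (log2 fold change -0.05, SE 0.13). Like *acs-4*, *acs-5*, *acs-19*, *acox-1.3*, *acox-1.6* and *acox-3*, it is named after its values were seen.

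*acs-17* measured 13.3, 13.3 and 15.7 CPM in N2 and 9.68, 10.5 and 8.46 CPM in the mutants (log2 fold change -0.56, SE 0.12, adjusted p = 0.0436). Its adjusted p was no longer under 0.05 without any single N2 library or without mutant replicate 3, with log2 fold changes between -0.60 and -0.48, nor with RLE scaling, library size alone or the length correction. The exons of *acs-22* share 44 bases with those of *dylt-2*, and those of *acs-17* share 109 bases with those of *C46F4.3*, on the other strand in both cases.

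The remaining synthetases did not pass the test. *acs-5* measured 60.4, 48.8 and 55.2 CPM in N2 and 44.1, 34.0 and 37.8 CPM in the mutants (log2 fold change -0.50, adjusted p = 0.0547), and the strains did not overlap. It passed with DESeq2, the exact test, the replicate block, the length correction with the block and without mutant replicate 1. *acs-1*, which is needed for the use of branched-chain fatty acids, measured 218, 146 and 184 CPM in N2 and 129, 147 and 146 CPM in the mutants (log2 fold change -0.38, adjusted p = 0.156). *acs-2*, a mitochondrial synthetase that fasting induces through NHR-49, measured 20.9, 28.4 and 20.0 CPM in N2 and 28.9, 22 and 22.4 CPM in the mutants (log2 fold change 0.08, SE 0.17). The strains overlapped in *acs-2*, and its sign turned without N2 replicate 3 or mutant replicate 1.

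The most abundant synthetase, *acs-13*, measured 687, 776 and 749 CPM in N2 and 528, 845 and 704 CPM in the mutants (log2 fold change -0.09, SE 0.16). Mutant replicate 1 was its lowest library and mutant replicate 2 its highest, and its sign turned without mutant replicate 1 or with a length correction. *acs-4* (548 ± 22.9 CPM in N2 and 526 ± 74.3 CPM in the mutants) and the acetyl-CoA synthetase *acs-19* (349 ± 28 and 393 ± 30 CPM, SD, n = 3 per strain) also overlapped between the strains. Over the 17 tested synthetases, log2 fold changes ran from -0.74 to 0.19 with a median of -0.09.

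Among the acyl-CoA dehydrogenases, 1 of 10 tested genes was lower at an adjusted p under 0.05 and none was higher. Over all tested genes, 3.67% were lower and 1.79% higher. *acdh-1*, which starts the shunt that breaks down propionate when vitamin B12 is scarce, took more counts than any other of the 73 genes. It measured 1277, 1193 and 1251 CPM in N2 and 1033, 896 and 991 CPM in the mutants. Each mutant library was below each N2 library, by 1.27-fold on the fitted scale (log2 fold change -0.35, SE 0.08, adjusted p = 0.0454). The adjusted p was under 0.05 in 1 of the 6 fits that leave a library out, that without mutant replicate 1, with log2 fold changes between -0.39 and -0.25, and it was also lost with RLE scaling, library size alone and the length correction.

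*ech-6*, the enoyl-CoA hydratase of the same shunt, measured 427, 413 and 437 CPM in N2 and 480, 330 and 382 CPM in the mutants. The N2 libraries fell between the mutant libraries, and the log2 fold change was -0.10 (SE 0.13, adjusted p = 0.653), which turned positive, to 0.07, without mutant replicate 2. Without mutant replicate 1 it was -0.26 and had an adjusted p under 0.05. Of the 8 genes listed for propionate breakdown outside these families, all were tested, none was called, and in 5 each mutant library was below each N2 library, beside 17.9% of all tested genes. *pcca-1*, a subunit of the propionyl-CoA carboxylase of the canonical route, measured 214, 239 and 219 CPM in N2 and 165, 185 and 164 CPM in the mutants (log2 fold change -0.39, adjusted p = 0.0337). It was under 0.05 in 2 of the 6 fits that leave a library out, those without mutant replicate 1 or 2, with log2 fold changes between -0.42 and -0.34.

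*acdh-2* measured 17.6, 13.2 and 16.9 CPM in N2 and 11.7, 10.1 and 10.5 CPM in the mutants, without overlap and without passing the test (log2 fold change -0.56, SE 0.14, adjusted p = 0.0573). Its adjusted p was under 0.05 with DESeq2, the exact test, the length correction with the block, and without N2 replicate 2 or mutant replicate 1. *acdh-11*, which limits a fatty acid signal in the adaptation of membranes to heat, measured 64.5, 67.8 and 67.1 CPM in N2 and 62.4, 65.0 and 67.8 CPM in the mutants (log2 fold change -0.03, SE 0.07). The strains overlapped, and its sign depended on the scaling. The other 7 tested *acdh* genes had log2 fold changes between -0.16 and 0.19.

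None of the enoyl-CoA hydratases passed the main test in either direction, and 2 of 10 had an unadjusted p under 0.05, beside 23.9% of all tested genes. *ech-7* was higher at an adjusted p under 0.05 with DESeq2, the exact test and the length correction with or without the block. It also was without mutant replicate 2. Their 10 genes had log2 fold changes between -0.18 and 0.55, with 5 of each sign, and all lay within 1.5-fold. *ech-7* measured 37.8, 51.8 and 39.8 CPM in N2 and 70.9, 53.5 and 65.7 CPM in the mutants (log2 fold change 0.55, SE 0.15, adjusted p = 0.0742). The strains did not overlap, although N2 replicate 2 and mutant replicate 2 were close to each other. *ech-1.2*, the worm counterpart of the alpha subunit of the mitochondrial trifunctional protein, measured 391, 406 and 391 CPM in N2 and 330, 371 and 346 CPM in the mutants (log2 fold change -0.18, SE 0.07, adjusted p = 0.169).

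All 5 tested lipase genes had a negative log2 fold change, beside 6814 of the 12335 tested genes. The lipase median was -0.53, but no lipase had an adjusted p under 0.05 in the main test. The unadjusted p was under 0.05 for 2 of the 5, *lipl-2* and *lipl-3*, beside 23.9% of all tested genes. DESeq2 and the exact test each had both lower at an adjusted p under 0.05. For *lipl-2* this was also so with the length correction and without mutant replicate 1. For *lipl-3* it was also so with the length correction with the block and without N2 replicate 2. The sign of *lipl-5* turned to 0.00 or above with library size alone and without N2 replicate 2, and that of *lipl-1* turned to 0.10 without N2 replicate 1. *lipl-2* measured 12.3, 11.3 and 10.2 CPM in N2 and 7.61, 7.27 and 8.68 CPM in the mutants, without overlap (log2 fold change -0.53, SE 0.12, adjusted p = 0.0514). *lipl-5*, a lipase that fasting induces, measured 290, 392 and 368 CPM in N2 and 321, 342 and 332 CPM in the mutants (log2 fold change -0.08, SE 0.11). It made up most of the counts of the family.

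*lipl-1* and *lipl-3* are lipases that fasting induces through HLH-30 and that MXL-3 represses in fed animals. *lipl-3* measured 2.96, 0.945 and 1.89 CPM in N2 and 0.673, 0.568 and 0.600 CPM in the mutants. The strains did not overlap, and the N2 libraries differed 3.13-fold among themselves. The log2 fold change was -1.63 (SE 0.46, adjusted p = 0.083), and it was -1.17 without N2 replicate 1. Without N2 replicate 2 it was -1.98 and *lipl-3* was called, as it was with DESeq2, the exact test of edgeR and the length correction with the block. *lipl-1* measured 6.76, 1.94 and 2.19 CPM in N2 and 2.33, 2.44 and 1.86 CPM in the mutants. Its log2 fold change of -0.72 (SE 0.49) rested on N2 replicate 1. *lipl-4*, a lysosomal lipase studied for its effect on lifespan, had 35 counts over all libraries and was not tested, at 0.149 to 0.414 CPM in N2 and 0.284 to 0.414 CPM in the mutants.

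**Figure D5:**
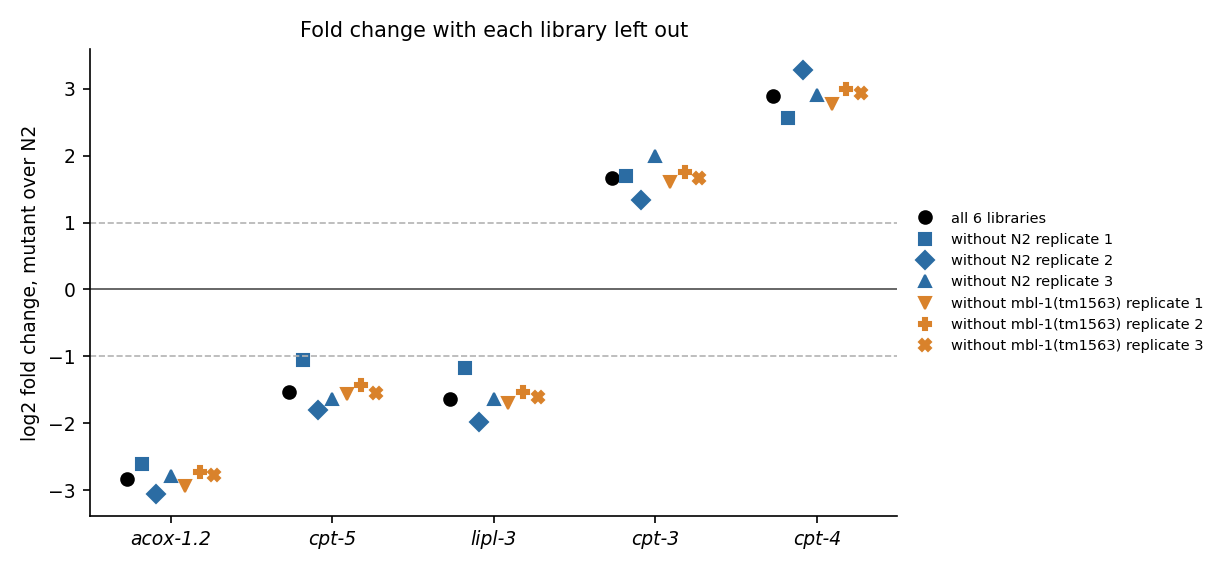
Log2 fold change of the 4 called genes and *lipl-3* with all 6 libraries (black) and with each library left out in turn, with dashed lines at a 2-fold change. The values of *acox-1.2* stay between -3.06 and -2.61 and those of *cpt-4* between 2.56 and 3.27, while those of *cpt-5* and *lipl-3* come closest to 2-fold without N2 replicate 1.

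None of the lipid-binding proteins passed the main test, and 1 of 9 had an unadjusted p under 0.05, beside 23.9% of all tested genes. *lbp-6* was higher at an adjusted p under 0.05 with DESeq2, the exact test and the length correction with or without the block. It also was without mutant replicate 1 or mutant replicate 2. *lbp-7*, named after its values were seen, was lower at an adjusted p under 0.05 without mutant replicate 1 alone (adjusted p = 0.433 in the main test). Their 9 log2 fold changes lay between -0.24 and 0.41. *lbp-9*, the gene with the highest level per kb, measured 870, 894 and 832 CPM in N2 and 1043, 840 and 832 CPM in the mutants (log2 fold change 0.06, SE 0.10). Its sign turned without mutant replicate 1, which stood above the other libraries. *lbp-6* measured 153, 164 and 165 CPM in N2 and 251, 179 and 209 CPM in the mutants, without overlap (log2 fold change 0.41, SE 0.12, adjusted p = 0.0929). Its exons share 35 bases with those of *mec-6* on the other strand.

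*lbp-1*, *lbp-2* and *lbp-3*, whose proteins carry a secretion signal, are neighbours on chromosome X from 3257372 to 3261470 and lie on the same strand. *lbp-3* measured 77.6, 72.7 and 68.3 CPM in N2 and 85.9, 77.9 and 82.7 CPM in the mutants (log2 fold change 0.17, SE 0.08, adjusted p = 0.216). *lbp-2* measured 361, 332 and 337 CPM in N2 and 326, 304 and 339 CPM in the mutants (log2 fold change -0.09, SE 0.07). *lbp-8*, which carries a fatty acid signal from the lysosome to the nucleus, measured 3.91, 3.23 and 3.08 CPM in N2 and 3.83, 3.75 and 3.17 CPM in the mutants (log2 fold change 0.07, SE 0.16). It was the least abundant of the *lbp* genes in both strains.

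The replicates of N2 differed among themselves in some of the genes that differed between strains. In 6 of the 64 tested genes the highest N2 library was over 2 times the lowest, by 3.48-fold in *lipl-1*, 3.13-fold in *lipl-3*, 2.83-fold in *cpt-4*, 2.77-fold in *acs-6*, 2.70-fold in *cpt-3* and 2.64-fold in *cpt-5*. N2 replicate 1 was the highest in *lipl-1*, *lipl-3* and *cpt-5* and the lowest in *cpt-4*. Among the mutants such a spread was seen in 2 genes, *acs-3* and *acs-6*, both chosen after their values were seen. The median coefficient of variation of the 64 genes was 8.06% in N2 and 10.7% in the mutants, beside 6.42% and 13.3% over all tested genes.

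Of 50 genes listed for other parts of fat breakdown, namely partner enzymes, droplet lipases and coats, acyl-CoA binding and regulation, 48 were tested. None was called by the main test or DESeq2, while the exact test, and the length correction with the block, called 1, *pmp-4*. *pmp-4*, a transporter of the peroxisome membrane, measured 55.6, 16.4 and 24.8 CPM in N2 and 14.9, 11.1 and 13.4 CPM in the mutants, without overlap (log2 fold change -1.29, SE 0.41, adjusted p = 0.115). N2 replicate 1 stood well above its other N2 libraries. Its adjusted p was under 0.05 in 2 alternatives, and that of *pccb-1* in 9 (log2 fold change -0.54, adjusted p = 0.0618 in the main test). Both genes are named after their values were seen. Of the 48, 14 had an unadjusted p under 0.05, beside 23.9% of all tested genes, and 3 had an adjusted p under 0.05, all lower, beside 3.67% of all tested genes. They were *pcca-1*, given above, *ctl-2* and *mxl-3*. *ctl-2*, the catalase of peroxisomes, measured 28.3, 29.1 and 28.3 CPM in N2 and 18.3, 20.4 and 17.7 CPM in the mutants (log2 fold change -0.60, adjusted p = 0.0106). *mxl-3*, the repressor of lipase genes, measured 38.4, 36.7 and 42.2 CPM in N2 and 25.0, 29.9 and 22.3 CPM in the mutants (log2 fold change -0.60, adjusted p = 0.0320). Both lost their adjusted p under 0.05 in several fits that leave a library out, *ctl-2* in 3 of 6 (without N2 replicate 1, N2 replicate 3 or mutant replicate 3) and *mxl-3* in 4 of 6 (without any single N2 library or mutant replicate 3). Their log2 fold changes over these fits lay between -0.62 and -0.56 and between -0.68 and -0.51. Without N2 replicate 1, N2 replicate 3 or mutant replicate 3, none of the 48 genes had an adjusted p under 0.05, whereas 8 were lower without mutant replicate 1, and 7 were lower and 1 higher without mutant replicate 2.

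By list, 1 of 7 tested partners of peroxisomal beta-oxidation (*ctl-2*), 1 of 8 genes of propionate breakdown (*pcca-1*) and 1 of 14 regulators (*mxl-3*) were lower. These are 14.3%, 12.5% and 7.14% of the lists, beside 3.67% of all tested genes. None of the 8 partners of mitochondrial beta-oxidation, the 6 tested droplet genes and the 5 tested acyl-CoA binding proteins passed. The median over the 48 genes was -0.19, and in 15 (31.2%) each mutant library was below each N2 library, beside 17.9% of all tested genes.

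Markers of tissues were measured in the same libraries. All 7 intestine markers had negative log2 fold changes, beside 6814 of the 12335 tested genes. The intestine median was -0.20, beside -0.04 over all tested genes. Of the 7 markers 1, the peptide transporter *pept-1*, was lower at an adjusted p under 0.05, beside 3.67% of all tested genes (log2 fold change -0.82, adjusted p = 0.0041). The sum of the intestine markers was 1326 to 1500 CPM in N2 and 924 to 1370 CPM in the mutants. The medians were -0.47 for the 5 body wall muscle markers and -0.53 for the 5 neuron markers. In each list 2 were lower, beside 3.67% of all tested genes, *myo-3* and *unc-54* in muscle and *unc-104* and *egl-3* in neurons. The study counts *unc-104* among the known splicing targets of MBL-1. In each list 1 marker had a positive log2 fold change, *lev-11* (0.03) in muscle and *snb-1* (0.09) in neurons. The median was 0.08 for the 5 germline markers, none of which passed. Of 4 hypodermis markers 3 were tested, with a median of 0.45, and none passed. *col-19* had means of 278 CPM in N2 and 247 CPM in the mutants (log2 fold change -0.17). The other tested markers were low, *dpy-7* at 1.15 and 1.58 CPM (0.45) and *rol-6* at 0.656 and 1.52 CPM (1.17). The 5 sperm markers were too low to be tested. Their sum was 0.211, 0 and 0.177 CPM in N2 and 1.76, 0.511 and 0.655 CPM in the mutants. The sum of the germline markers was 3627, 3898 and 3953 CPM in N2 and 3229, 4664 and 4038 CPM in the mutants. Mutant replicate 1 was thus the highest library for the sperm sum and the lowest for the germline sum. The part of these differences in the values of the *acox*, *cpt*, *acs*, *acdh* and *lipl* genes was not tested.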

How the data were processed

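The authors prepared stranded poly(A) libraries from whole animals, aligned the reads with STAR to the WBcel235 assembly and counted them per gene with HTSeq, ignoring strand. For each of the 6 libraries the deposited file gives raw counts per gene, neither normalized nor filtered. Tool versions are not given in the sources used here. Strain and replicate were taken from the sample labels. Symbols, positions and exon lengths came from annotation release 115 of the same assembly.

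The test was that of edgeR 4.0.16 in R 4.3.3 (filterByExpr with minimum count 10 and minimum total 15, TMM, robust quasi-likelihood fit with strain as the only factor, two-sided). The Benjamini-Hochberg adjustment ran over all 12335 tested genes, and a call also asked for a 2-fold change. The test was also run on counts simulated from fitted means and dispersions, with changes larger than 2-fold. That run does not check smaller changes or a library that differs from the others. CPM use the TMM-scaled library totals, and lists were described by counts and medians without a test of the list. Levels were compared between genes per kb of exon. Genes with few counts have wide errors at this depth. No libraries of a strain agreed within sampling noise, so each was used as a replicate. The chi-square per degree of freedom was 3.83 to 8.99 between N2 libraries and 12.2 to 59.7 between mutant libraries. Mutant replicate 1 was in the pairs at 59.7 and 24.6.

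The genes named are those with an adjusted p under 0.05, the 2 with the smallest p and the most abundant in each family, and those with a well-known role. The members and lists were chosen with earlier results of these data known. Alternatives were DESeq2 1.42.0, the exact test, 2 other scalings, 3 other filters, no fold limit, a test against a 2-fold change, the replicate number as a block, a gene-length correction with and without it, and each library left out. The same replicate numbers occur in both strains, but nothing in the labels ties the animals that share one.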

Additional observations from a re-analysis of the deposited data

How the results depend on the processing

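Of the results for single genes and their alternatives, 540 kept their direction and their side of the limits, 28 changed sign, 13 lost a call and 12 gained one. The count of genes called lower was 1 with RLE scaling, library size alone, no low-count filter, a filter of 10 counts on the total, a filter of 10 counts in every library or a test against a 2-fold change, and 7 with no limit on the fold change. With each library left out it was 1 to 3. The count called higher was 1 with the filter of 10 counts in every library or the test against 2-fold, and 1 to 2 with a library left out. DESeq2, the exact test and the length correction with the block called 3 genes lower. The replicate block alone gave 2 higher and 2 lower genes of these families and 63 higher and 107 lower over all genes, beside 86 and 141 without it. The correlations of same-numbered libraries were 0.111, 0.00812 and 0.13, and those of differently numbered libraries lay between -0.158 and 0.0878. These values do not settle whether the libraries were paired. The numbers were not taken as a pairing in the main test because the labels do not give one. Among the named genes the block ended 1 call, that of *mbl-1*, and with it *acs-17*, *acdh-1* and *mxl-3* had no adjusted p under 0.05.

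The median log2 fold change was 0.00 with library size alone, -0.03 with no filter or a filter of 10 counts on the total, 0.01 with the length correction with or without the block, and -0.11 to 0.00 with a library left out. No alternative moved the median of all genes by over 0.1. *mbl-1* was no longer called at -1.14 against a 2-fold change, -1.17 with the block, -0.96 with the length correction and -0.98 with both, and ranged from -1.39 to -0.89 with a library left out.

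Sign changes were all of values near 0, apart from *lipl-1*. *acdh-11* was at 0.00 with DESeq2, RLE scaling, no filter and a filter of 10 counts on the total, 0.05 with library size alone and 0.07 with the length correction with or without the block. *acox-1.5* was at 0.05 with library size alone, 0.08 with the length correction and 0.07 with the block added. *lipl-5* was at 0.00 with library size alone. With the length correction, and with the block added, *acs-13* was at 0.06 and 0.05, *cpt-1* at 0.07 and 0.07, and *cpt-2* at 0.01 and 0.01. With a library left out the ranges were -0.06 to 0.01 (*acdh-11*), -0.16 to 0.09 (*acox-1.5*), -0.22 to 0.07 (*acs-13*), -0.06 to 0.26 (*acs-2*), -0.16 to 0.04 (*cpt-1*), -0.26 to 0.07 (*ech-6*), -0.05 to 0.16 (*lbp-9*), -1.04 to 0.10 (*lipl-1*) and -0.20 to 0.01 (*lipl-5*). The cause was not tested.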
